A study of Mus musculus with 12 samples.

Results

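The complement and acute-phase genes described here were 8 genes taken by symbol, namely C1s1, C2, Cfb, Serping1, Serpinf1, Cp, Hp and Osmr, out of 1846 named genes that could be placed in the expression table of 45101 probe sets. They were chosen by their expression differences, from genes that differed between PMSG-treated ESR1KO and PMSG-treated WT oviducts on these arrays. All 8 are in the study's list of genes that differed with genotype, PMSG or both. Every genotype and PMSG difference given for them is therefore a description. Calls at a p threshold are counted below only to place these genes against the rest of the table, and no p is printed or read as evidence for them. RNA from whole oviducts of immature female C57BL/6 mice was measured on 12 Affymetrix arrays, with 3 arrays in each of 4 groups and oviducts of 3 to 4 mice pooled per sample. PMSG-treated ESR1KO and PMSG-treated WT mice were given 5 IU of PMSG, a gonadotropin that makes follicles grow and ovaries secrete estradiol, at 23 days of age and were killed after 48 h, whereas ESR1KO and WT mice were killed untreated at 23 days of age. At collection the PMSG-treated mice were 2 days the older, so effects of PMSG and of age cannot be told apart.

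ESR1KO mice carried a global deletion of estrogen receptor alpha (ESR1-/-, with or without Zp3Cre, a Cre recombinase expressed in the oocyte). The WT mice were their siblings and carried 1 floxed and 1 deleted allele (ESR1flox/-, with or without Zp3Cre), so both genotypes had at least 1 deleted copy. The deletion was global and so not restricted to the oviduct.

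Complement is a cascade of plasma and tissue proteases. In the classical pathway the C1 complex, made of C1q and the proteases C1r and C1s, cleaves C4 and C2, and in the alternative pathway factor B takes the place that C2 has in the classical one. Both routes form enzymes that cleave C3, and C1 inhibitor, the product of Serping1, blocks C1r and C1s. Acute-phase proteins such as haptoglobin and ceruloplasmin are plasma proteins whose liver output changes in inflammation, largely under cytokines of the IL6 family, and oncostatin M, which signals through the receptor encoded by Osmr, belongs to that family. In the oviduct, complement proteins and their regulators occur in a fluid that bathes sperm and embryos.

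The arrays gave log2 expression signals, in which a difference of 1 is a 2-fold change and a mean under 4 was taken as near background. Array medians lay between 5.63 and 5.75. Esr1, the deleted gene, had signals of 10.11, 10.62 and 10.56 in PMSG-treated ESR1KO mice, against 12.62, 12.82 and 12.21 in PMSG-treated WT mice, and 10.42, 12.13 and 11.05 in untreated ESR1KO mice, against 12.94, 12.92 and 13.05 in untreated WT mice. The groups did not overlap, but replicate 2 of untreated ESR1KO lay closest to WT; leaving it out changed no member's call in any comparison. In untreated ESR1KO the tissue label was borne out by Ovgp1, the oviductal glycoprotein, at 15.94 and by Foxj1, a regulator of ciliated cells, at 11.69, while 15 of 15 probe sets for hepatocyte genes were between 1.74 and 2.95. Samples were bulk tissue, so fewer cells of a type and less RNA per cell cannot be told apart.

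Promoter sequences were at hand for 4 of the 8 genes (C1s1, Cp, Serpinf1 and Osmr; RefSeq, GRCm38.p6). They are shown for C1s1 and Serpinf1 because these were the genes in which the half-site of the estrogen response element, GGTCA or TGACC on the other strand, was found close to the start site. Each sequence runs 5′ to 3′ on the minus strand from 250 bases before to 50 bases after the start, and capitals mark the half-sites. The C1s1 promoter shown is chr6:124542272-124542571 and the Serpinf1 promoter is chr11:75422574-75422873.
C1s1: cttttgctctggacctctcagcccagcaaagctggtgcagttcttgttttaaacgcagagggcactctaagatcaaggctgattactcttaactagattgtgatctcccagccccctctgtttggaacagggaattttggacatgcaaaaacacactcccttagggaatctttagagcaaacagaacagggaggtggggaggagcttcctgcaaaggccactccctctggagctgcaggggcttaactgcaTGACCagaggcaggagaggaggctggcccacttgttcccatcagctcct
Serpinf1: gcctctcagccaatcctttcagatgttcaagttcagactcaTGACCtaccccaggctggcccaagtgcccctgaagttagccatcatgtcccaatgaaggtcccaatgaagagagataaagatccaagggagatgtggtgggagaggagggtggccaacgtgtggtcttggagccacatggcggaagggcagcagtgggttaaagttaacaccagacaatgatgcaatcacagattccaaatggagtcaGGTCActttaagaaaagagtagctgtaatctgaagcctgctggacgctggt
In the C1s1 promoter shown the half-site began 1 base downstream of the annotated first base. It lay 39 bases downstream of the first base of the other C1s1 promoter. In Serpinf1 1 half-site began 209 bases upstream of the annotated first base, and the other began 1 base upstream and ran across it. Half-sites were in 3 of the 6 promoters of these 4 genes, both C1s1 promoters holding the same one, and in 40.5% of the 32851 promoters of the table. The full element, GGTCANNNTGACC, was in 0 of the 6 promoters and in 0.07% of all promoters. The STAT motif TTCNNNGAA was in 0 of 6, against 8.3% of all promoters, and an NF-kB motif was in 0 of 6, against 8.46%. Serping1, Cfb, C2 and Hp were not searched.

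With PMSG, 7 of the 8 genes were higher and Hp was lower in ESR1KO than in WT oviducts, each by more than 2-fold. All 8 were called with limma at a Benjamini-Hochberg adjusted p under 0.05 plus a difference of 2-fold or more, a rule that called 4.48% of all 45101 rows (2.76% higher and 1.72% lower) and 48.3% of the 1997 rows that could be placed through the study's own list. The 8 genes were picked from those that differed in this same comparison, whereas the 1997 rows were listed for any effect. The count of 8 therefore follows from the choice and is no result about them. Their median difference was 1.52 on the log2 scale, against 0.36 over the 1997 rows, and this excess follows from the same choice. Without PMSG, 5 of the 8 genes were called between ESR1KO and WT mice, 4 higher (Serping1, C2, Cp and Osmr) and 1 lower (Hp). The rule called 18.1% of the 1997 rows (9.06% higher and 9.01% lower). Its adjusted p is an upper bound in this comparison, so calls were harder to reach than with PMSG. The arrays of the 2 genotypes did not overlap for 8 of 8 genes with PMSG (93.1% of the 1997 rows) and for 7 of 8 genes without it (78.5%).

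**Figure D1:**
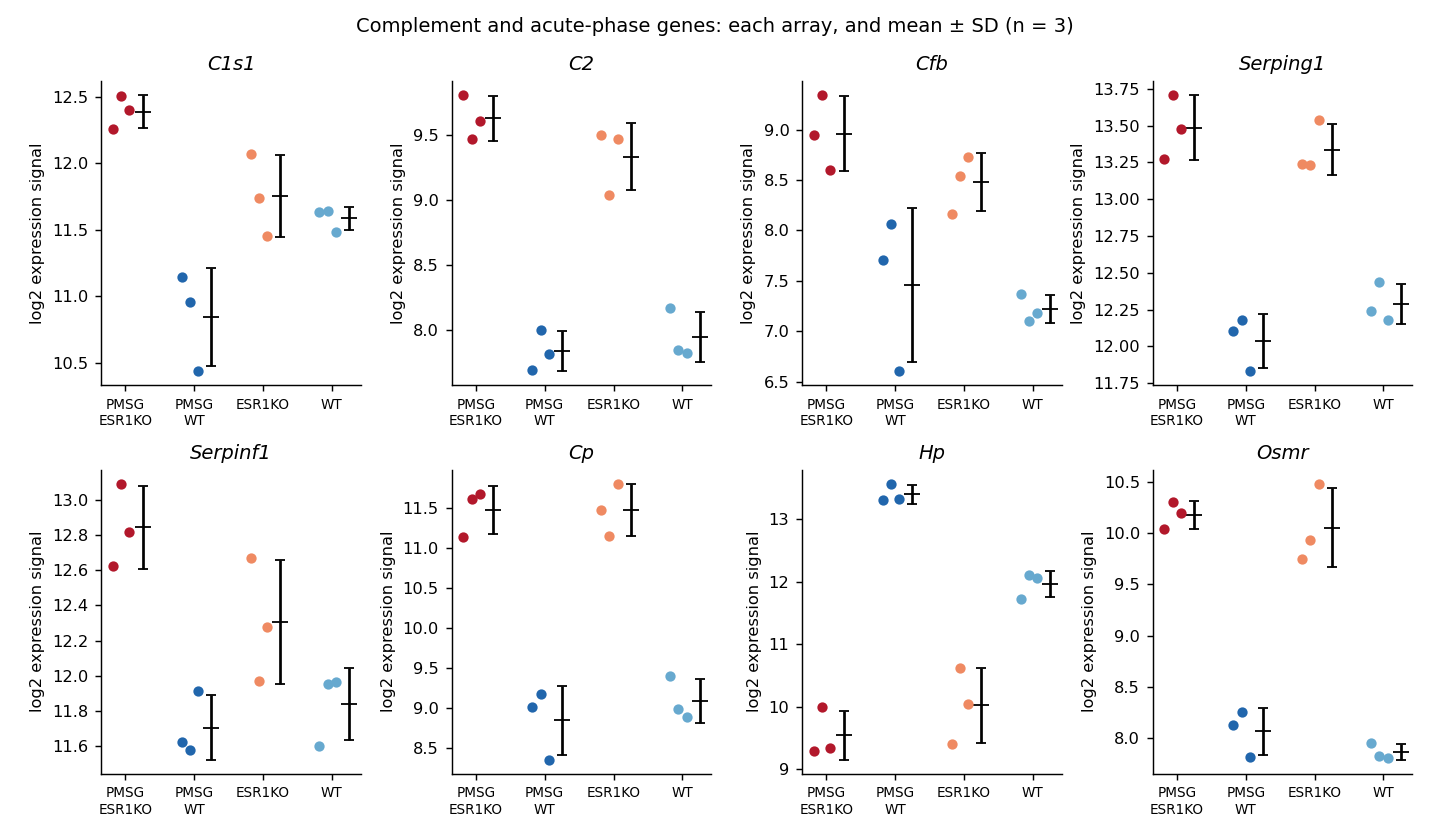
Log2 expression signal of the 8 genes on each array (points) with the mean ± SD of each group (black, n = 3), for PMSG-treated ESR1KO, PMSG-treated WT, ESR1KO and WT oviducts, each panel with its own y axis that does not start at 0. The PMSG-treated ESR1KO points lie above the PMSG-treated WT points in 7 panels and below them for Hp, and C1s1 is the gene in which ESR1KO and WT points overlap without PMSG.

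C1s1 encodes C1s, the protease of the C1 complex that cleaves C4 and C2. Its signals were 12.26, 12.51 and 12.40 in PMSG-treated ESR1KO oviducts, against 11.15, 10.95 and 10.44 in PMSG-treated WT oviducts. The groups were 1.11 apart at their nearest arrays, and the means of 12.39 ± 0.13 and 10.85 ± 0.37 (SD, n = 3 each) differed by 1.54 (SE 0.18), or 2.92-fold. Without PMSG, signals of 12.07, 11.74 and 11.46 in ESR1KO oviducts overlapped with 11.63, 11.64 and 11.48 in WT oviducts, a difference of 0.17 (SE 0.19). The genotypes therefore stood apart with PMSG and overlapped without it. The interaction that tests this was 1.37 (SE 0.27) and was not called, at an adjusted p that is an upper bound. In WT mice the PMSG-treated arrays were all below the untreated arrays, by 0.74 (SE 0.18) or 1.67-fold on average, and in ESR1KO mice they were all above them, by 0.63 (SE 0.19) or 1.55-fold; neither difference was called. The probe set is one that its name marks as shared by related transcripts.

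C2 encodes the component that C1s cleaves to give the protease of the classical C3 convertase. It had signals of 9.81, 9.47 and 9.61 in PMSG-treated ESR1KO oviducts, against 7.69, 8.0 and 7.82 in PMSG-treated WT oviducts, a difference of 1.80 (SE 0.16) or 3.47-fold. Untreated ESR1KO oviducts had 9.5, 9.04 and 9.47, against 8.17, 7.84 and 7.82 in untreated WT oviducts, a difference of 1.39 (SE 0.17) or 2.62-fold. Both ESR1KO groups were above both WT groups on every array. PMSG-treated and untreated arrays overlapped within each genotype, with differences of 0.29 (SE 0.17) in ESR1KO and -0.11 (SE 0.16) in WT mice. The placed probe set is one that its name marks as possibly matching other sequences too. The 2 other C2 probe sets could be read only in untreated ESR1KO, where they averaged 9.59 and 9.71.

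Cfb encodes factor B, the alternative-pathway counterpart of C2, and lies next to C2 on chromosome 17. Signals were 8.95, 9.35 and 8.60 in PMSG-treated ESR1KO oviducts, against 7.71, 8.06 and 6.6 in PMSG-treated WT oviducts. The WT group was the most variable of the 32 gene and group combinations (SD 0.76), and its replicate 3 lay far below the other two. The difference was 1.5 (SE 0.36), or 2.84-fold. This call was the least firm of the 8: it was lost without any single one of the 3 WT, 3 PMSG-treated ESR1KO or replicate 1 of the PMSG-treated WT arrays, at differences between 1.31 and 1.69, and it was kept without replicate 3 of PMSG-treated WT, at 1.08. Untreated ESR1KO oviducts had 8.17, 8.54 and 8.73, against 7.37, 7.10 and 7.19 in untreated WT oviducts, which did not overlap and differed by 1.26 (SE 0.34) or 2.39-fold without reaching the call. With replicate 3 of PMSG-treated WT left out of the fit, the same difference of 1.26 was called. PMSG-treated and untreated arrays overlapped in ESR1KO mice (0.48, SE 0.34) and in WT mice (0.24, SE 0.36). One annotation of this probe set names C2 as well as Cfb, and the other names Cfb alone.

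Serping1 encodes C1 inhibitor, the serpin that inactivates C1r and C1s. It was strongly expressed in all groups, with signals of 13.27, 13.71 and 13.48 in PMSG-treated ESR1KO oviducts, against 12.11, 12.18 and 11.83 in PMSG-treated WT oviducts, a difference of 1.45 (SE 0.15) or 2.73-fold. Without PMSG the signals were 13.24, 13.23 and 13.54 in ESR1KO oviducts, against 12.24, 12.44 and 12.18 in WT oviducts, a difference of 1.05 (SE 0.14) or 2.07-fold. The genotypes stood apart in both settings, but the untreated difference was only just over the 2-fold limit. It was not called without replicate 3 of ESR1KO, at 0.95, or without replicate 3 of WT, at 1.00. PMSG-treated WT arrays were all below untreated WT arrays narrowly (nearest arrays 0.0035 apart), with a mean difference of -0.25 (SE 0.15), and ESR1KO arrays overlapped (0.15, SE 0.14).

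Serpinf1 encodes pigment epithelium-derived factor, a secreted serpin without protease-inhibitor activity that is known for restraining blood vessel growth. Its signals were 12.62, 13.09 and 12.82 in PMSG-treated ESR1KO oviducts, against 11.62, 11.58 and 11.92 in PMSG-treated WT oviducts. The difference of 1.14 (SE 0.16), or 2.20-fold, was the smallest of the 8 genes in this comparison. Untreated ESR1KO oviducts had 12.67, 11.97 and 12.28, against 11.60, 11.95 and 11.96 in untreated WT oviducts. These groups were separated by 0.0064 at their nearest arrays and differed by 0.47 (SE 0.19), or 1.38-fold, which was not called. The PMSG-treated and untreated groups overlapped in both genotypes, with differences of 0.54 (SE 0.19) in ESR1KO and -0.13 (SE 0.16) in WT mice.

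Cp encodes ceruloplasmin, a copper-carrying ferroxidase and acute-phase protein. It had signals of 11.14, 11.62 and 11.68 in PMSG-treated ESR1KO oviducts, against 9.02, 9.17 and 8.35 in PMSG-treated WT oviducts, a difference of 2.63 (SE 0.25) or 6.19-fold, the largest increase of the 8 genes. Untreated ESR1KO oviducts had 11.48, 11.15 and 11.81, against 9.40, 8.98 and 8.89 in untreated WT oviducts, a difference of 2.39 (SE 0.25) or 5.24-fold. The genotypes were at least 1.75 apart at their nearest arrays in either setting. PMSG-treated and untreated ESR1KO oviducts averaged 11.48 ± 0.30 and 11.48 ± 0.33 (SD, n = 3 each), and PMSG-treated and untreated WT oviducts averaged 8.85 ± 0.44 and 9.09 ± 0.27. All 8 probe sets for Cp were above 4 in untreated ESR1KO oviducts.

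Hp encodes haptoglobin, the hemoglobin-binding acute-phase protein, and moved against the other 7 genes. Its signals were 9.29, 9.99 and 9.34 in PMSG-treated ESR1KO oviducts, against 13.30, 13.57 and 13.32 in PMSG-treated WT oviducts, a difference of -3.86 (SE 0.20), that is, 14.5-fold lower. Untreated ESR1KO oviducts had 9.41, 10.61 and 10.04, against 11.72, 12.10 and 12.05 in untreated WT oviducts, 3.83-fold lower (log2 difference -1.94, SE 0.28). The nearest arrays of the genotypes were 3.31 apart with PMSG and 1.11 apart without it. Hp was the one gene of the 8 called between PMSG-treated WT and WT mice, 2.71-fold higher with PMSG (log2 difference 1.44, SE 0.20), where 0.251% of all rows (0.177% higher) and 3.81% of the 1997 rows were called. In ESR1KO mice the PMSG-treated and untreated arrays overlapped, with a difference of -0.48 (SE 0.28). The call between PMSG-treated WT and WT mice was lost without any one of the 3 WT arrays, replicate 1 or 2 of PMSG-treated WT or replicate 3 of PMSG-treated ESR1KO, at differences of 1.32 to 1.51. The call between untreated ESR1KO and WT mice was lost without replicate 2 of WT, at -1.87, in the methods' unmoderated model and in a fit of only the 6 arrays compared. The row of Hp in the untreated ESR1KO arrays was settled by the p-values of the row key, since the fold changes alone pointed to another row, so its untreated ESR1KO values rest on that key.

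Osmr encodes the oncostatin M receptor chain that pairs with gp130. It had signals of 10.04, 10.30 and 10.20 in PMSG-treated ESR1KO oviducts, against 8.12, 8.26 and 7.81 in PMSG-treated WT oviducts, a difference of 2.12 (SE 0.15) or 4.34-fold. Untreated ESR1KO oviducts had 9.75, 9.93 and 10.49, against 7.95, 7.83 and 7.81 in untreated WT oviducts, a difference of 2.20 (SE 0.19) or 4.58-fold. The genotype difference with PMSG was close in size to that without it (interaction -0.08, SE 0.27), and PMSG-treated and untreated arrays overlapped in ESR1KO (0.12, SE 0.19) and in WT mice (0.20, SE 0.15). Of 2 other Osmr probe sets, read only in untreated ESR1KO, 1 averaged 5.36 and 1 averaged 2.40, near background.

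**Figure D2:**
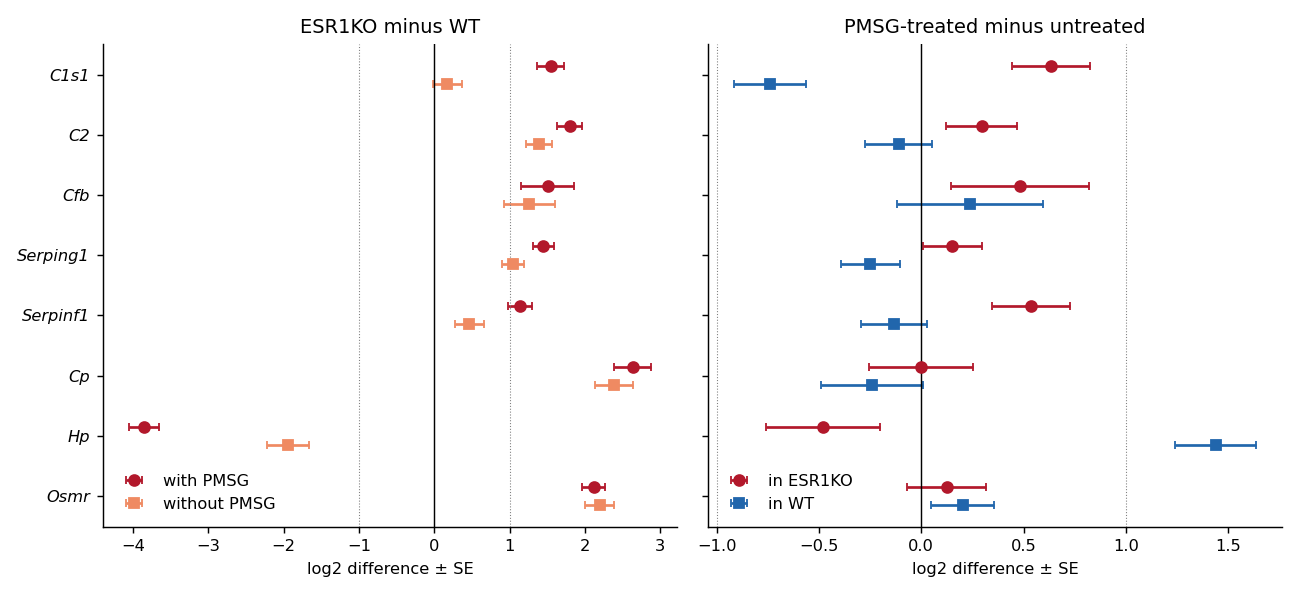
Log2 differences (points) with their SE (bars) for the 8 genes. Left, ESR1KO minus WT with PMSG (circles) and without it (squares); right, PMSG-treated minus untreated in ESR1KO (circles) and in WT mice (squares); dotted lines mark a 2-fold difference. Osmr and Cp have similar genotype differences in both settings, Hp has 14.5-fold and 3.83-fold lower levels in ESR1KO, and Hp in WT mice is the only PMSG difference past 2-fold.

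Between PMSG-treated ESR1KO and ESR1KO mice limma called 0 of 8 genes, and it called 0.1% of the 1997 rows. The arrays of these groups did not overlap for 1 of 8 genes, C1s1, against 21.5% of the rows, and those of PMSG-treated WT and WT mice did not overlap for 3 of 8 genes (C1s1, Hp and Serping1), against 53% of the rows. The test of the difference itself, the interaction of genotype and PMSG, called 0 of 8 genes and 0.651% of the rows. As in the other comparisons that use untreated ESR1KO, the adjusted p was an upper bound. The interaction estimates were 1.37 (SE 0.27) for C1s1, -1.92 (SE 0.39) for Hp and 0.67 (SE 0.27) for Serpinf1, and those of the other 5 genes lay between -0.08 and 0.40. The comparisons share groups of arrays and so are not independent of each other.

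Across the 12 arrays the 7 genes that were higher in ESR1KO correlated with one another at Pearson r between 0.69 and 0.98 (21 pairs), and Hp correlated with them at r between -0.95 and -0.74. These coefficients describe 12 arrays from 4 groups, were computed on genes chosen for the group difference and carry no p-value. The same measure picked out the placed genes whose signals most resembled each member. Ndrg1, a stress-responsive gene, was among the 3 closest to Cp (r = 0.99), Serping1 (r = 0.99) and Osmr (r = 0.98), and Avpr1a, a vasopressin receptor, was among the 3 closest to C2 and Osmr (r = 0.98 each). The closest gene to C2 was Fmod, a collagen-binding proteoglycan of connective tissue (r = 0.99), and that to Serpinf1 was Loxl1, a lysyl oxidase that crosslinks elastin (r = 0.96). C1s1 was closest to Nkd2, an inhibitor of Wnt signalling (r = 0.98), Hp to the transcription factor gene Ets2 (r = 0.99) and Cfb, the gene with the most variable arrays, to the proteasome subunit gene Psma1 (r = 0.93). Stk26 and Scara5 were next for Serping1, Gdf10 and Gabra3 for C1s1, Sppl2a and Casp4 for Cfb, Peg3 for C2, Pappa2 and Ap1s2 for Cp, Slc25a5 and Cycs for Hp and Fzd7 and Cnrip1 for Serpinf1, while AA986860 was first for Osmr.

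Other genes of the same pathways could be followed in all 4 groups only where they too were among the 1997 rows of the study's list that were used here, which are not the whole list. Of 14 classical and lectin pathway genes on the array, 2 besides C1s1 and C2 were placed. Both were called higher in PMSG-treated ESR1KO relative to PMSG-treated WT oviducts, as were 28.3% of the 1997 rows. C1ra, the C1r protease that activates C1s, had signals of 10.68, 11.02 and 11.01 in PMSG-treated ESR1KO oviducts, against 8.93, 9.33 and 8.91 in PMSG-treated WT oviducts, a difference of 1.85 (SE 0.16) or 3.6-fold. Without PMSG it differed by 0.82 (SE 0.16), or 1.77-fold, and was not called. Fcna, a ficolin that starts the lectin pathway, averaged 4.02 ± 0.79 in PMSG-treated ESR1KO oviducts and 2.37 ± 0.10 in PMSG-treated WT oviducts (SD, n = 3 each), so the lower group was near background. Among 16 genes for regulators and receptors, Clu, the terminal-pathway inhibitor clusterin, was the only other gene placed. It differed by 0.01 (SE 0.14) with PMSG and was called 2.31-fold higher in ESR1KO versus WT mice without PMSG, and 2.45-fold higher in PMSG-treated WT versus WT mice.

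Of 31 acute-phase genes on the array, 4 others were placed. Of these, 3 were called higher in PMSG-treated ESR1KO relative to PMSG-treated WT oviducts, against 28.3% of the 1997 rows. Serpina1b, an alpha-1 antitrypsin gene of a family of near-identical copies, had 7.95, 8.06 and 8.14 in PMSG-treated ESR1KO oviducts, against 3.45, 3.73 and 2.62 in PMSG-treated WT oviducts, where it was near background. The log2 difference was 4.78 (SE 0.31), uncertain in size because of that weak group. It was called lower in PMSG-treated WT relative to WT mice (log2 difference -3.63, SE 0.31) and 2.86-fold higher in ESR1KO relative to WT mice, and its interaction of genotype and PMSG was called (3.27, SE 0.43). Ltf, the iron-binding protein lactoferrin, was 3.15-fold higher with PMSG and 2.54-fold higher without it. Lcn2, the siderophore-binding lipocalin, was 2.59-fold higher in PMSG-treated ESR1KO relative to PMSG-treated WT mice, 10.7-fold higher in ESR1KO versus WT mice and 3.72-fold higher in PMSG-treated WT versus WT mice. Lbp, which carries lipopolysaccharide, differed by 0.88 (SE 0.21) with PMSG and was not called. Of 7 genes for proteins that fall in the acute phase, Rbp4, the retinol carrier, was placed and was 2.01-fold lower in PMSG-treated ESR1KO relative to PMSG-treated WT oviducts.

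Around Osmr, 3 other genes of IL6 and oncostatin M signalling were placed out of 22 on the array. Cebpd, a transcription factor gene of the acute-phase response, had 10.97, 11.29 and 11 in PMSG-treated ESR1KO oviducts, against 9.25, 9.34 and 8.85 in PMSG-treated WT oviducts, and was called higher by 3.84-fold with PMSG and 2.84-fold without it. Clcf1, a cytokine of the family, was called higher by 3.12-fold with PMSG, and Lifr, the receptor chain of leukemia inhibitory factor, differed by 0.90 (SE 0.19) without being called. In untreated ESR1KO oviducts, where any probe set could be read, the ligand genes Il6 and Osm were near background, averaging 2.59 and 1.97. The placed probe set of the ligand gene Clcf1 averaged 7.68 there. The highest probe sets of the signal transducers Il6st (gp130) and Stat3 averaged 12.03 and 12.58. Of 40 serpin genes, 5 others were placed. Serpinb11 was 34.1-fold lower and Serpina9 9.58-fold lower in PMSG-treated ESR1KO relative to PMSG-treated WT oviducts, and both were also called lower without PMSG. Serpina1b was called higher, so the placed serpins had no common direction, and the others could not be followed.

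**Figure D3:**
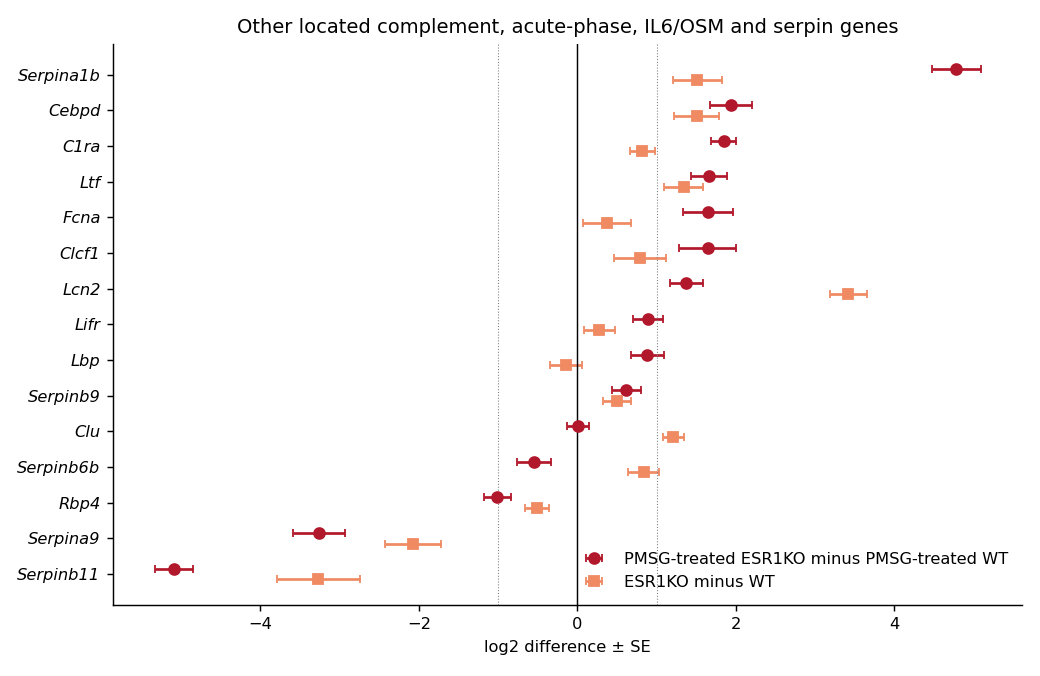
Log2 differences (points) with their SE (bars) for the 15 other complement, acute-phase, IL6 and oncostatin M, and serpin genes that could be placed in all groups: PMSG-treated ESR1KO minus PMSG-treated WT (circles) and ESR1KO minus WT (squares), ordered by the first; dotted lines mark a 2-fold difference. Serpina1b lies at 4.78 and Serpinb11 at -5.09 with PMSG.

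Some markers of leukocytes moved with the 7 genes that were higher in ESR1KO. All 4 placed macrophage markers (Csf1r, Mrc1, Cd163 and Lyz2) of 11 on the array were called higher in PMSG-treated ESR1KO relative to PMSG-treated WT oviducts. There 28.3% of the 1997 rows were called higher, and Mrc1 only just reached the 2-fold limit (2.00-fold). Mrc1 and Cd163 were called higher without PMSG as well, where 9.06% of the rows were. The log2 of the summed signal of the 4 markers ranged over 12.5 to 13 in PMSG-treated ESR1KO and 10.8 to 11.6 in PMSG-treated WT. It was 11.8 to 12.2 in ESR1KO and 11 to 11.4 in WT mice. The neutrophil markers S100a8 and S100a9 were called higher in PMSG-treated ESR1KO, at means of 8.10 and 6.92, than in PMSG-treated WT oviducts, where both were near background at 3.72 and 2.76, so no fold is given. The S100a9 mean in PMSG-treated ESR1KO was 8.06 without replicate 1. Their summed signals were 6.89 to 9.77 in PMSG-treated ESR1KO, 3.83 to 4.94 in PMSG-treated WT, 7.12 to 8.28 in ESR1KO and 3.76 to 5.09 in WT mice. The other 5 neutrophil genes on the array, Mpo at 2.20 and Elane at 2.12 among them, were under 4 in untreated ESR1KO. The B lymphocyte gene Cd79b was called higher in PMSG-treated ESR1KO (mean 5.07) than in PMSG-treated WT oviducts (mean 3.30, near background), and 5 of the 7 lymphocyte genes on the array were at or under 4 in untreated ESR1KO. The part of these cells in the differences of the complement and acute-phase genes was not tested.

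Markers of other tissue cells moved in both directions. The fibroblast genes Pdgfra and Lum were 2.81-fold higher and 4.30-fold lower in PMSG-treated ESR1KO relative to PMSG-treated WT oviducts. In ESR1KO relative to WT mice Pdgfra was called 2.18-fold higher, while Lum and Col1a2 were called 5.43-fold and 5.05-fold lower. The placed Col1a2 probe set was weak in untreated ESR1KO (mean 4.41, replicate 3 at 3.44), so its fold is uncertain in size. Other Col1a2 probe sets, read only in that group, averaged 13.33 and 14.01. The summed signal of these 3 genes, most of it from Pdgfra in both ESR1KO groups, was 13.8 to 14 in PMSG-treated ESR1KO, 12.9 to 13.2 in PMSG-treated WT, 13 to 13.7 in ESR1KO and 13 to 13.3 in WT mice. Of 3 endothelial genes, Pecam1 was called 2.40-fold lower with PMSG. Without PMSG, Pecam1 and Emcn were called 9.45-fold and 2.97-fold lower in ESR1KO relative to WT mice. Pecam1 signals in untreated ESR1KO were weak and spread (4.32, 6.35 and 4.06), so that fold is uncertain in size. The summed signal of the 3 endothelial genes was 9.25 to 9.53 in PMSG-treated ESR1KO and 9.65 to 9.98 in PMSG-treated WT. It was 8.0 to 8.92 in ESR1KO and 9.86 to 10.3 in WT mice. The smooth muscle gene Actg2 was called 4.79-fold lower in ESR1KO versus WT mice, and the mesothelial gene Lrrn4 was called 2.63-fold higher with PMSG. Their part in the results was not tested.

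**Figure D4:**
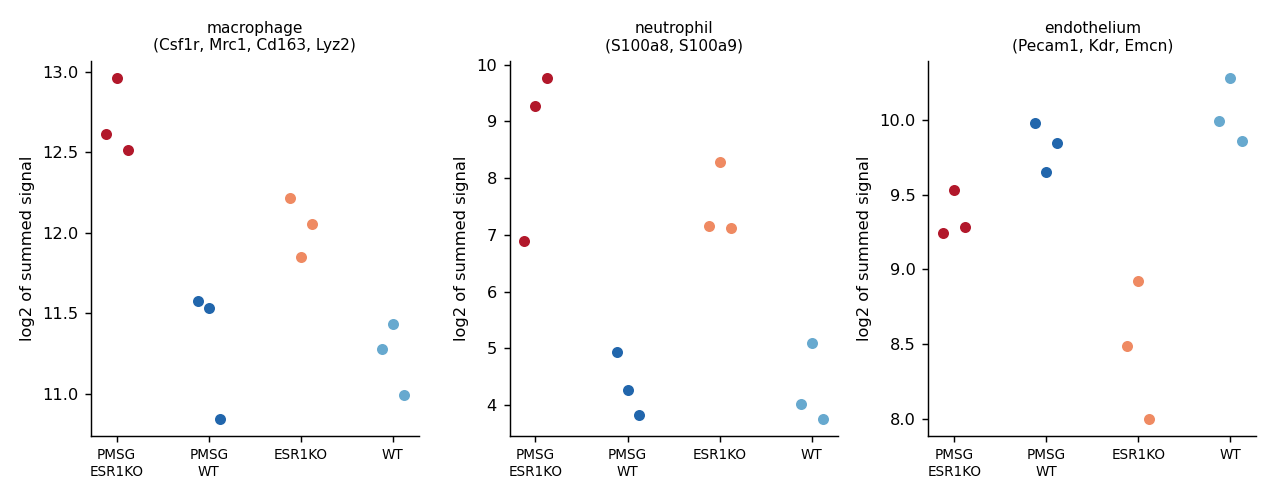
Log2 of the summed signal of the placed macrophage, neutrophil and endothelial marker genes on each array (points), for PMSG-treated ESR1KO, PMSG-treated WT, ESR1KO and WT oviducts (n = 3 each), each panel with its own y axis that does not start at 0. Macrophage and neutrophil sums are higher in both ESR1KO groups than in either WT group, and endothelial sums are lower.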

How the data were processed

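Whole oviduct RNA of 4 groups (3 samples each) had been hybridized to Affymetrix Mouse Genome arrays. The deposited values are log2 signals, which the authors made with Partek 6.6 by GC-RMA background correction, quantile normalization and probe summarization; weak signals are compressed by this correction. No detection calls were used. In the table the probe set names fit only the columns of untreated ESR1KO; the other 9 share a different row order, which was not resolved. Each gene was therefore located through its row in the study's supplementary gene list, whose fold changes and p-values served as a row key only. All 1997 rows used here, a part of that list, were located (largest distance 8.76e-05 log2; p-values within 0.298%), and 1840 of 1847 matched symbols were equal; 15 rows had a second candidate, and the closest was taken. The list holds genes the study called, so located rows are enriched for differences.

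The genotypes after PMSG, and the WT mice with and without PMSG, were compared with limma 3.58.1 in R 4.3.3 (a mean per group, moderated variances with a trend) over all 45101 rows of 9 arrays, without untreated ESR1KO. Other comparisons were fitted on the 1997 rows of 12 arrays with the prior of that fit (prior df 2.87). Their p-values were adjusted as for 45101 tests. Rows that were not placed had no p-value to rank, so these adjusted p-values are upper bounds and their calls are conservative. Calls needed an adjusted p under 0.05 and a 2-fold difference, the interaction no fold. Of the probe sets, 34958 had 1 gene symbol, 932 several and 9211 none; genes were named from those with 1, and C3 and C4 are not reported here. Named genes were the 8 members, up to 2 per direction of each pathway and marker list, other placed genes of those lists where a count is described, and the 3 placed genes closest to each member. Members and lists were chosen with earlier results of these data known. The labels only number the replicates, and the study's methods state that different mice were used for them. P-values measure the spread between these pools of oviducts. The locating and fitting steps were tested on simulated data.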

Additional observations from a re-analysis of the deposited data

Results flagged for a closer look

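C1s1 was flagged among the 8 genes because PMSG-treated and untreated arrays moved in opposite directions in the 2 genotypes without overlapping. Every PMSG-treated ESR1KO array was above every ESR1KO array, and every PMSG-treated WT array was below every WT array. Such groups did not overlap, in either direction, for 21.5% of the 1997 rows in ESR1KO and 53% in WT mice. Rows that met both conditions were not counted. For C1s1, the PMSG difference in ESR1KO minus that in WT was 1.37 on the log2 scale (SE 0.27). The interaction of genotype and PMSG was tested with limma and was not called at an adjusted p under 0.05. That adjusted p is an upper bound. The interaction estimate ranged from 1.17 to 1.53 when each of the 12 arrays was left out in turn. Mean PMSG differences of opposite sign were not particular to C1s1. Hp had a larger interaction (-1.92, SE 0.39), and C1ra, outside the 8 genes, had one of 1.03 (SE 0.23). Neither was called.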

How the results depend on the processing

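The number of the 8 genes called between the genotypes after PMSG was 7 or 8 under every alternative run (no variance trend, the methods' unmoderated model, a filter on low signals, repeated quantile normalization, no fold minimum, 6 arrays only, each array left out), Cfb being the gene lost. In PMSG-treated WT versus WT mice, the 1 gene called (Hp) gave 0 in the unmoderated model and 0 to 1 when arrays were left out. In ESR1KO versus WT mice the count of 5 was 3 with only the 6 arrays compared (Serping1, Cp and Osmr), 4 in the unmoderated model (without Hp) and 4 to 6 when arrays were left out. Counts for PMSG-treated ESR1KO versus ESR1KO and for the interaction were 0 throughout. With the replicate number as a block the counts were 8, 1, 5, 0 and 0, so the block changed no call. Deviations of same-numbered arrays correlated between -0.11 and 0.26. Arrays with different numbers were not compared in this way, so whether the numbers pair the samples cannot be told. No called difference changed sign, and 11 differences without a call did, among 472 computed, that of the Cfb interaction being -0.18 without replicate 3 of PMSG-treated WT. With fold changes alone as the row key, 99 of 1997 rows changed, Hp among the members. A fit over all rows of 12 arrays was not run because no single rearrangement of the rows was found. With 3 arrays per group, precision is limited by their number.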

Other observations

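Probe sets of untreated ESR1KO oviducts carry their own names, so further complement and acute-phase genes were read in that group, with no comparison. The C1q subunit genes were expressed, C1qa averaging 9.94 and C1qc 8.78, whereas the lectin-pathway genes Mbl1, Mbl2 and Masp2 were all under 4. Colec11, of the same pathway, averaged 4.22 in its higher probe set and 1.75 in the other. The regulators Cfi (complement factor I) and Cd55 (decay-accelerating factor) averaged 11.52 and, in the highest of its probe sets, 10.97. Of 31 acute-phase genes, 19 were at or under 4, among them Saa1, Crp and the fibrinogen genes Fga, Fgb and Fgg, while Saa3 averaged 7.36 and Serpina3n 8.06.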
